A study of Rattus norvegicus with 35 samples.

Results

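The comparison described here is of rat livers after triadimefon at 1800 ppm with rat livers after propiconazole at 2500 ppm in the feed. Its members are the 8 arrays whose titles name these treatments, 4 per compound, of 35 arrays listed and 32 arrays with values, and it was read across 31042 probe sets, which are all probe sets of the Affymetrix rat genome array except the 57 control probe sets of the manufacturer. Each array held liver RNA of 1 Wistar Han IGS rat, exposed through the feed of the feeding study between gestation day 6 and postnatal day 92, when the tissue was taken. Groups used beside these 8 arrays were 5 livers after triadimefon at 500 ppm, 3 livers after propiconazole at 500 ppm and 7 livers of controls at 0 ppm, and the linear model also held 5 livers after myclobutanil at 500 ppm and 4 livers after myclobutanil at 2000 ppm. The series' design text calls the arrays of a group biological replicates, with no word on which rats were littermates. The fed levels differ, so a difference between the 8 arrays is one between a compound at one level and another compound at a higher level.

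Triadimefon and propiconazole are triazole fungicides. Both carry a triazole ring whose nitrogen can bind the heme iron of cytochromes P450, and both are used against fungi because they inhibit the sterol 14-alpha-demethylase of the fungal ergosterol pathway, the enzyme whose mammalian counterpart is encoded by Cyp51. Triadimefon is a ketone and propiconazole a cyclic ketal, so the triazole is shared and the group beside it is not. In liver, many azoles are also known as inducers of drug-metabolizing enzymes through the nuclear receptors CAR and PXR. Cholesterol is made from acetyl-CoA through mevalonate, isoprenoids, squalene and lanosterol, and genes of this pathway are known to be transcribed together under the sterol-sensing factors of the SREBP family, which act at promoters with NF-Y.

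The values are scores deposited by the authors, 1 per probe set and array, and neither the labels nor the table state their scale, log base or centring. A difference below is therefore a difference of scores, not a fold change. On these arrays RNA is copied from its 3′ end, so the control probe sets for the 3′ and 5′ ends of GAPDH and β-actin show how much of the 5′ end is missing, and their mean 3′ minus 5′ difference, called the 3′–5′ difference here, was 1.17, 1.86, 1.16 and 1.77 on the arrays of triadimefon at 1800 ppm. On the arrays of propiconazole at 2500 ppm it was 0.57, 0.67, 0.67 and 0.53. The means were 1.49 ± 0.37 and 0.61 ± 0.07 (SD, n = 4 each), with no overlap, and the exact two-sided permutation p was 0.0286 (0.0286 after adjustment over 4 array measures), the smallest that 4 against 4 allows. Among the controls it ran between 0.50 and 2.12. Within the 8 arrays, compound and 3′–5′ difference cannot be told apart. The first principal component of the 32 arrays held 49.7% of the variance. Replicate 1 of triadimefon stood apart on the second, which held 12.5%, at 39.9 where the other 31 arrays lay between −12.8 and 9.77. Scores correlated at 0.933 to 0.990 between arrays of the triadimefon group and at 0.988 to 0.992 between arrays of the propiconazole group. Replicates 2 to 4 of triadimefon carry animal numbers above 3000, while replicate 1 and all 4 propiconazole rats carry numbers below it, so number series and compound can be told apart only through replicate 1 and the controls.

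Testis is the tissue named under RNA extraction in the labels, and liver is named in titles and under labelling, so markers of both were read. The mean score of 15 measured hepatocyte markers was 4.10 to 5.15 on the triadimefon arrays and 3.82 to 4.50 on the propiconazole arrays. The mean score of 14 measured testis markers was −0.13 to 0.48 on the triadimefon arrays and 0.04 to 0.12 on the propiconazole arrays. Prm1, which encodes a protamine that packs the DNA of sperm, was at −0.24, 3.15, −0.25 and −0.33 on triadimefon replicates 1 to 4, against 1.16, 0.92, 1.14 and 0.99 on the propiconazole arrays. Replicate 2 of triadimefon thus had the highest Prm1 score of the 8 arrays and the other 3 triadimefon arrays lay below every propiconazole array. Prm1 also varied outside the 8 arrays, at −0.27 to 1.71 in the controls. It was at 0.96 to 2.68 after myclobutanil at 500 ppm and 0.85 to 2.51 after myclobutanil at 2000 ppm. Tnp1, which encodes a transition protein of maturing sperm, was at 1.37 on triadimefon replicate 2 and at −0.34 to −0.29 on the other 3 triadimefon arrays, against −0.06 to 0.42 on the propiconazole arrays. Of the 14 testis markers, 9 had their highest triadimefon score on replicate 2. The 4 Leydig cell markers Insl3, Cyp17a1, Star and Hsd3b1 did not, and Cyp17a1 was at −0.17 there, against −0.16 to 0.19 on the other 3 triadimefon arrays. Nor did Acrv1, which is not a Leydig cell marker, at −0.278 on replicate 2 and −0.274 on replicate 1. Prm1 and Tnp1 were singled out after their values were seen. With the Prm1 score added to the model as a second covariate, 21 probe sets were called in place of the 48 given below, 20 of them shared, and the part of testis RNA in the results was otherwise not tested.

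**Figure D1:**
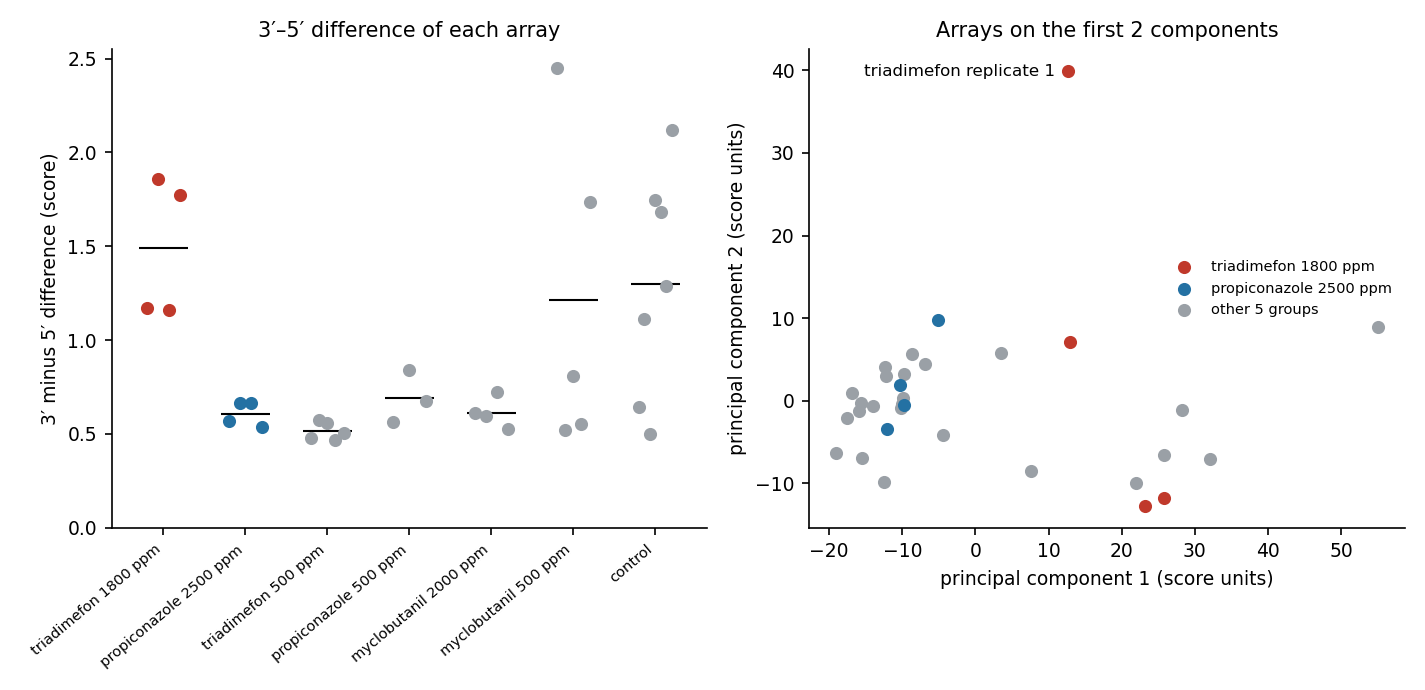
Left, the 3′–5′ difference (score units) of every array by group, with a bar at the group mean; right, the arrays on principal components 1 and 2 (score units). The 4 triadimefon 1800 ppm arrays lie between 1.16 and 1.86 and the 4 propiconazole 2500 ppm arrays between 0.53 and 0.67, and triadimefon replicate 1 lies at 39.9 on the second component.

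Livers after triadimefon at 1800 ppm had higher scores than livers after propiconazole at 2500 ppm for a small set of genes in which 4 enzymes of cholesterol synthesis stood, and lower scores for few. When the 3′–5′ difference entered as covariate in a linear model of all 32 arrays (limma), 48 of 31042 probe sets (0.155%) passed an adjusted p of 0.05 and are called here, 39 higher (0.126%) and 9 lower (0.029%) after triadimefon. Without the covariate 2590 (8.34%) were called, 2257 higher (7.27%) and 333 lower (1.07%). Of the 48, 39 were called in both fits, 38 of the 39 higher ones and 1 of the 9 lower ones. All 2590 kept their sign with the covariate, and for 2475 of them (95.6%) the slope on the 3′–5′ difference had the sign of the difference, where the slope was above 0 in 71.6% of all probe sets. The median difference of all probe sets was 0.02 with the covariate and 0.05 without it. The scores of the 4 and 4 arrays did not overlap in 6063 probe sets (19.5%) higher after triadimefon and 900 (2.9%) lower, and 38 of the 39 higher calls and 1 of the 9 lower calls were among them. Once the scores were set to 1 common 3′–5′ difference with the fitted slopes, 1909 probe sets (6.15%) did not overlap with triadimefon higher and 823 (2.65%) with triadimefon lower, and all 39 and all 9 calls were among these. The slopes came from the same fit as the calls, so this lack of overlap is not separate support for them.

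The number called rested on single arrays. Without triadimefon replicates 1, 2, 3 and 4 in turn it was 27, 127, 70 and 124, and without propiconazole replicates 1, 2, 3 and 4 it was 23, 27, 5 and 22. The 27 calls without triadimefon replicate 1, 25 higher and 2 lower, shared 13 with the 48, and with replicate 1 and the covariate both left out, 2883 were called. After scaling the arrays to 1 spread, 8 were called, all 8 higher and 0 lower, and after quantile normalization 21 were called, 19 higher and 2 lower, where the same normalization without the covariate called 694 higher and 505 lower. Of the 20 called genes named below, Mvd, Sbspon and C8h11orf52 were called in all 8 fits that leave out 1 of the 8 arrays, Acat2 in 7 (not without propiconazole replicate 3, adjusted p = 0.0546), Hsd17b7 and Synpo in 6, Lss in 5, Inf2, Nfe2, Gadd45b and Gstt2 in 4, and the other 9 in 2 or 3. With the animal number series as a block beside the covariate, 52 probe sets were called, and 8 of the 20 named genes were not among them, at adjusted p of 0.0502 to 0.0664: Lss, Inf2, Anxa5, Gadd45b, Atp5mf, Ndufv3, Paqr7 and Gstt2. Named genes below are those of the 10 largest differences in each direction among called genes, members of pathway lists with a call, and 8 further genes of drug and sterol metabolism.

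**Figure D2:**
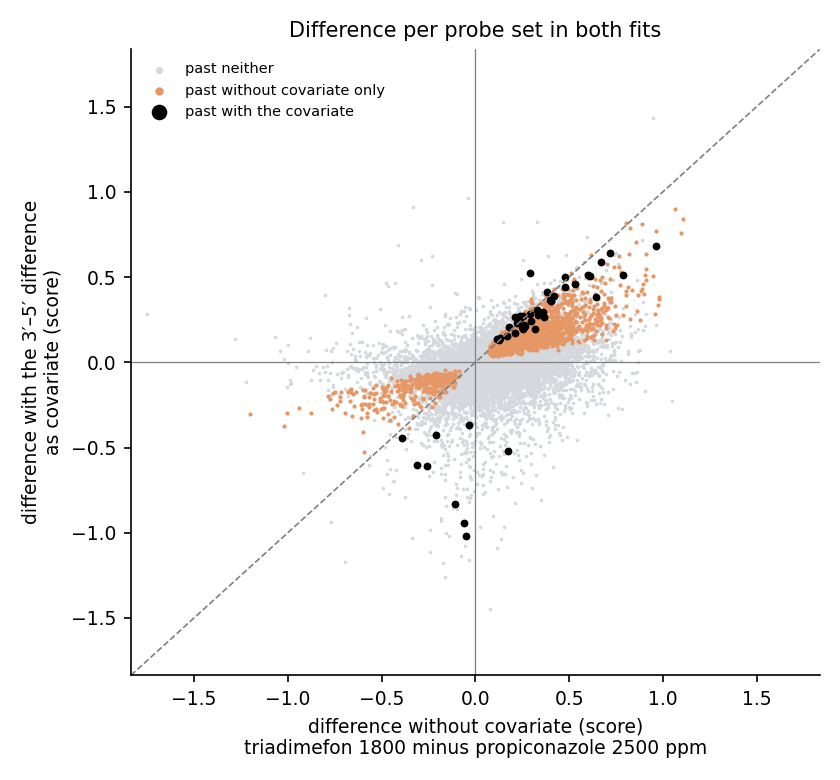
Difference of scores, triadimefon 1800 minus propiconazole 2500 ppm, for every probe set without a covariate (horizontal axis) and with the 3′–5′ difference as covariate (vertical axis), with a dashed line where both are equal. The 39 higher calls (black) lie near the dashed line, and the 9 lower calls lie below 0 on the vertical axis, where only C8h11orf52 was also called without the covariate.

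Genes of cholesterol synthesis had higher scores after triadimefon at 1800 ppm than after propiconazole at 2500 ppm. Of 21 genes listed 18 were measured, and 4 rose past the threshold, Acat2, Mvd, Lss and Hsd17b7, while 0 fell, beside 0.26% of all 14217 genes called, 0.197% higher and 0.0633% lower. The difference was above 0 in 17 of 18, where it was above 0 in 65.2% of all genes, and its median was 0.41 beside 0.03 for all genes. The median was 0.40 after quantile normalization, 0.39 after scaling the arrays to 1 spread, 0.33 without triadimefon replicate 1 and 0.64 without the covariate, and without the covariate 14 of 18 were called higher, beside 9.47% of all genes. The list was chosen with earlier results of these data known, and it is described here by its counts alone.

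The promoters of the 4 called enzymes are shown because these members were called in the same direction. Whether they are regulated together was not tested. They are RefSeq sequences of build GRCr8, from 250 bases before to 50 bases after the gene's start, written 5′ to 3′ on the strand of the gene, with the NF-Y motif CCAAT and its reverse complement in capitals. Acat2 lies at chr1:50100590-50100889 on the plus strand, Mvd at chr19:67414925-67415224 on the minus strand, Lss at chr20:12118181-12118480 on the minus strand and Hsd17b7 at chr13:84722705-84723004 on the minus strand.
Acat2: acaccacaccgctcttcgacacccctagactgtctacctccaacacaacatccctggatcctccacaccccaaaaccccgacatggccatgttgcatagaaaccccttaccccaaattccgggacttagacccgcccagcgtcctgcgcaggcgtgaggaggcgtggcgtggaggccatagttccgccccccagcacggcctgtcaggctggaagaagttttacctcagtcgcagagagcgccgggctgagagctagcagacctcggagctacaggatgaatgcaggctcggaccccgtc
Mvd: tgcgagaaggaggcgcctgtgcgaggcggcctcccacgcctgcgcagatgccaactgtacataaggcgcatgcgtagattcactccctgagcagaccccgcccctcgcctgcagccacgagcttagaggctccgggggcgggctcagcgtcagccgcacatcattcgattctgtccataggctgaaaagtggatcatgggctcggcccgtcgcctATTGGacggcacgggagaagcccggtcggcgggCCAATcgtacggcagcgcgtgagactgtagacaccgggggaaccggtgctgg
Lss: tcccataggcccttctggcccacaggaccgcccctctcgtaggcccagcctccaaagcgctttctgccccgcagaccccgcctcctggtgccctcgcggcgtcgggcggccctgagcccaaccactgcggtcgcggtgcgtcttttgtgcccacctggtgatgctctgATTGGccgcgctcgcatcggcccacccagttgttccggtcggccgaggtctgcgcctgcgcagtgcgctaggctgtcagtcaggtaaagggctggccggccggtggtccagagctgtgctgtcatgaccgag
Hsd17b7: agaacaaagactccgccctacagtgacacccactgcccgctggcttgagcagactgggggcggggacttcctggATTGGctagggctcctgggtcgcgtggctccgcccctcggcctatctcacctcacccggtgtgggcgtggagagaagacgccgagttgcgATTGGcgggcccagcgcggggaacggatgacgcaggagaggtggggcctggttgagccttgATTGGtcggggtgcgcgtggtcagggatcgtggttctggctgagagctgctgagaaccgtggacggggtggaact

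CCAAT on either strand occurs 2 times in the window of Mvd, 1 time in that of Lss, 3 times in that of Hsd17b7 and 0 times in that of Acat2. It was found in 12 of the 15 measured cholesterol genes with a RefSeq promoter, where 37.5% of 33469 promoters hold it. TCACNCCAC, searched on both strands as one form of the sterol regulatory element, was found in 0 of the 15 and in 1.12% of all promoters, which says only that these letters are not in these windows.

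Acat2, the thiolase that joins acetyl-CoA units at the entry of the pathway, was at 1.64, 1.41, 1.42 and 1.33 after triadimefon, against 0.93, 0.80, 0.55 and 0.84 after propiconazole. All 4 triadimefon arrays lay above the propiconazole arrays. The difference was 0.59 (SE 0.10, adjusted p = 0.00999), it was 0.67 without the covariate and 0.50 without triadimefon replicate 1 (adjusted p = 0.0391).

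Mvd, mevalonate diphosphate decarboxylase, which makes the isoprenoid unit, was at 1.02, 0.99, 0.93 and 1.13 after triadimefon, against 0.45, 0.43, 0.32 and 0.46 after propiconazole. The groups were far apart beside the spread within them. Its difference of 0.51 (SE 0.06, adjusted p = 4.21e-05) changed little without the covariate (0.60) or without triadimefon replicate 1 (0.50, adjusted p = 0.000595). Mvd was called in 27 of 28 other settings, among them all 8 that leave out 1 array. The setting that lost it was the fit of the 8 arrays alone with the covariate, where Acat2, Lss and Hsd17b7 were not called either.

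Lss, lanosterol synthase, which closes the sterol rings directly before the step of CYP51, was at 0.97, 0.75, 0.92 and 1.04 after triadimefon, against 0.56, 0.51, 0.35 and 0.60 after propiconazole. The groups did not overlap. The difference was 0.39 (SE 0.07, adjusted p = 0.0254) and 0.42 without the covariate. Without triadimefon replicate 1 it was 0.36 and no longer called (adjusted p = 0.0828), and its other probe set gave 0.19 (adjusted p = 0.0702).

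Hsd17b7, which reduces the keto group left during sterol demethylation and is also on the steroid hormone list, was at 1.72, 1.60, 1.73 and 1.84 after triadimefon, against 1.15, 1.05, 0.73 and 1.09 after propiconazole. Again all 4 triadimefon arrays were the higher ones. Its difference of 0.64 (SE 0.12, adjusted p = 0.021) was 0.72 without the covariate and 0.63 without triadimefon replicate 1, where it was not called (adjusted p = 0.0566), and a dimmer probe set of the gene gave 0.29 (adjusted p = 0.251).

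The other 14 measured members did not pass with this probe set. Msmo1, the sterol C4 methyl oxidase, had the largest difference of the list, with scores of 3.69, 3.05, 3.76 and 3.29 after triadimefon, against 2.71, 2.90, 2.23 and 2.75 after propiconazole and a difference of 0.82 (adjusted p = 0.110). Fdft1, squalene synthase, had 3.24, 2.77, 2.88 and 2.89 after triadimefon, against 2.42, 2.57, 2.18 and 2.54 after propiconazole. Its difference was 0.48 (adjusted p = 0.107), and a second probe set of Fdft1 was called at 0.52 (adjusted p = 0.0398). Idi1, the isomerase of the isoprenoid unit, was at 1.25 on triadimefon replicate 1 and at 2.48 to 2.98 on the other 3, against 1.76 to 2.49 after propiconazole, and its difference was 0.12. Nsdhl, a sterol dehydrogenase of the demethylation steps, overlapped, at 2.60 to 3.50 after triadimefon and 2.77 to 3.26 after propiconazole. Ggps1, which leads away from sterols to geranylgeranyl groups, was the one member below 0, at −0.04. In 13 of the 18 genes the deposited scores of the groups did not overlap, all higher after triadimefon, where this held for 22.7% of all genes. Once the scores were set to 1 common 3′–5′ difference, those of Fdps, Cyp51, Tm7sf2, Sc5d and Dhcr7 among these genes overlapped.

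Cyp51, which encodes the mammalian 14-alpha-demethylase itself, was at 4.08, 3.83, 4.33 and 3.96 after triadimefon, against 3.10, 3.38, 2.62 and 3.17 after propiconazole. The groups did not overlap, yet the call turned on the covariate. Without it the difference was 0.98 (adjusted p = 0.0426), and with it the difference was 0.38 (95% interval −0.09 to 0.86, adjusted p = 0.530), with a slope of 0.68 per unit of 3′–5′ difference. The slopes of Mvd, Acat2, Lss and Hsd17b7 lay between 0.03 and 0.10.

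**Figure D3:**
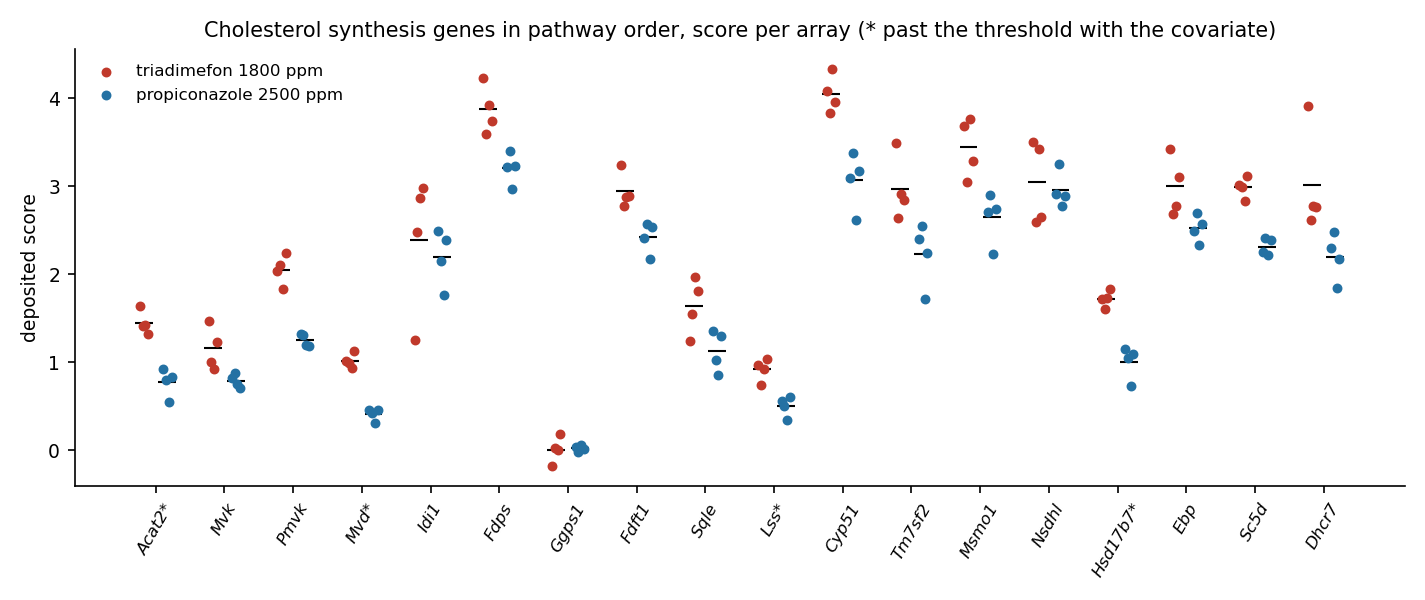
Deposited score of the 18 measured cholesterol synthesis genes in pathway order on the 4 triadimefon 1800 ppm arrays (red) and the 4 propiconazole 2500 ppm arrays (blue), with a bar at each mean. An asterisk marks the 4 genes called with the covariate, and the groups do not overlap in 13 of the 18 genes.

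Beside the cholesterol genes, the largest rises among called genes after triadimefon relative to propiconazole were in RT1-Db1, Inf2, Sbspon, Nfe2, Synpo and Anxa5. Gadd45b rose as a member of the stress list. RT1-Db1, a class II antigen presentation chain, was at 1.71, 1.73, 1.0 and 1.50 after triadimefon, against 0.65, 0.66, 0.44 and 0.32 after propiconazole. The difference was 0.68 (SE 0.14, adjusted p = 0.0398), 0.97 without the covariate and 0.54 without triadimefon replicate 1 (adjusted p = 0.175), and a second probe set gave 0.30 (adjusted p = 0.543). Class II chains form a family of similar sequence, so the probe set may report more than 1 member.

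Inf2, a formin that shapes actin filaments, was at 1.30, 1.46, 1.19 and 1.58 after triadimefon, against 0.60, 0.67, 0.60 and 0.50 after propiconazole, with a difference of 0.51 (adjusted p = 0.0268). Synpo, synaptopodin, an actin-binding protein, was at 0.98, 0.70, 0.91 and 0.80 after triadimefon, against 0.33, 0.38, 0.19 and 0.38 after propiconazole, with a difference of 0.46 (adjusted p = 0.021). In both genes the groups did not overlap, but other probe sets of Synpo were at 0.01 and 0.01. Without triadimefon replicate 1 neither was called, at 0.50 (adjusted p = 0.0717) for Inf2 and 0.40 (adjusted p = 0.0821) for Synpo.

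Sbspon, a secreted protein with somatomedin B and thrombospondin domains, was at 0.63, 0.61, 0.47 and 0.79 after triadimefon, against −0.03, 0.06, −0.10 and 0.12 after propiconazole. Propiconazole livers overlapped the controls, which ran between −0.25 and 0.06, and triadimefon livers lay above both. The difference was 0.51 (SE 0.07, adjusted p = 0.00294), 0.61 without the covariate and 0.49 without triadimefon replicate 1 (adjusted p = 0.00772). Like Mvd it was called in 27 of 28 other settings, but not on the 8 arrays alone with the covariate.

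Gadd45b, a stress-inducible growth arrest gene, was at 0.22, 0.34, 0.57 and 0.71 after triadimefon, against 0.16, 0.04, 0.06 and −0.00 after propiconazole, with a difference of 0.37 (adjusted p = 0.0281). Replicate 1 was the lowest triadimefon array here, and without it the difference was 0.46 (adjusted p = 0.00179). Gadd45b was not called without triadimefon replicate 3 (0.32, adjusted p = 0.0766), nor without propiconazole replicates 2, 3 or 4 (adjusted p = 0.0746, 0.0933 and 0.087), nor on the 8 arrays alone with the covariate (0.27, adjusted p = 0.559), and it was called in 14 of 28 other settings. Anxa5, annexin A5, which binds phosphatidylserine, was at 1.62, 1.48, 1.49 and 1.66 after triadimefon, against 1.15, 1.15, 1.03 and 1.01 after propiconazole, with a difference of 0.44 (adjusted p = 0.0341) that was not called without triadimefon replicate 1 (0.41, adjusted p = 0.111). Nfe2, a transcription factor known from the red cell and platelet lineages, was at 0.64, 0.03, 0.09 and 0.20 after triadimefon, against −0.28, −0.31, −0.31 and −0.05 after propiconazole. Its difference of 0.50 (adjusted p = 0.0314) was 0.34 without triadimefon replicate 1 (adjusted p = 0.0817). Of the 39 higher calls, 10 had a mean score below 0 over the 32 arrays, 33 had 1 gene symbol and 6 had none, and the 28 that are not named by the rule differed by 0.13 to 0.52.

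The 9 genes that fell after triadimefon were of another kind: in 8 of them the deposited scores of the groups overlapped, and the call came from the covariate. Cops9, a small subunit of the COP9 signalosome, was at 1.54, 3.01, 2.19 and 3.20 after triadimefon, against 2.69, 2.61, 2.40 and 2.43 after propiconazole. The difference was −1.02 (SE 0.21, adjusted p = 0.0424) with the covariate and −0.05 without it. Its slope was 1.10 per unit of 3′–5′ difference, the largest among the calls, and without triadimefon replicate 1 its difference was −0.78 (adjusted p = 0.193).

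Atp5mf, a membrane subunit of ATP synthase, was at 2.11, 3.75, 2.90 and 3.68 after triadimefon, against 3.12, 3.14, 3.23 and 3.18 after propiconazole, with a difference of −0.94 (adjusted p = 0.0398) with the covariate and −0.06 without it. Replicate 1 was the lowest and replicate 2 the highest of the 8 arrays. Polr2l and Polr2i, subunits of RNA polymerase II, differed by −0.83 and −0.60 with the covariate and by −0.11 and −0.31 without it. Ndufv3 of respiratory complex I was at −0.61 and −0.26, Atp6v1g1 of the vacuolar proton pump at −0.42 and −0.21, Gstt2, a glutathione transferase, at −0.37 and −0.04, and Paqr7, a membrane progestin receptor, at −0.52 with the covariate and 0.18 without it. None of these 8 genes was called without triadimefon replicate 1, with adjusted p of 0.0612 to 0.193, and a second probe set of Ndufv3 was at −0.07 and one of Polr2i at −0.00. The 47 measured nuclear genes of oxidative phosphorylation had a median difference of −0.14 with the covariate and 0.26 without it. Of these, 0 were called, beside 0.26% of all genes. At an unadjusted p under 0.05 in limma 17 were lower, where 3.48% of all genes were. Without triadimefon replicate 1 the median was −0.26.

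C8h11orf52, for which no role is given here, was the exception. It was at 0.54, 0.81, 0.76 and 0.86 after triadimefon, against 1.21, 1.02, 1.11 and 1.19 after propiconazole, with no overlap. The difference was −0.44 (SE 0.07, adjusted p = 0.00652), −0.39 without the covariate and −0.37 without triadimefon replicate 1 (adjusted p = 0.0213). Controls lay between 0.79 and 1.01, between the means of both compounds.

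**Figure D4:**
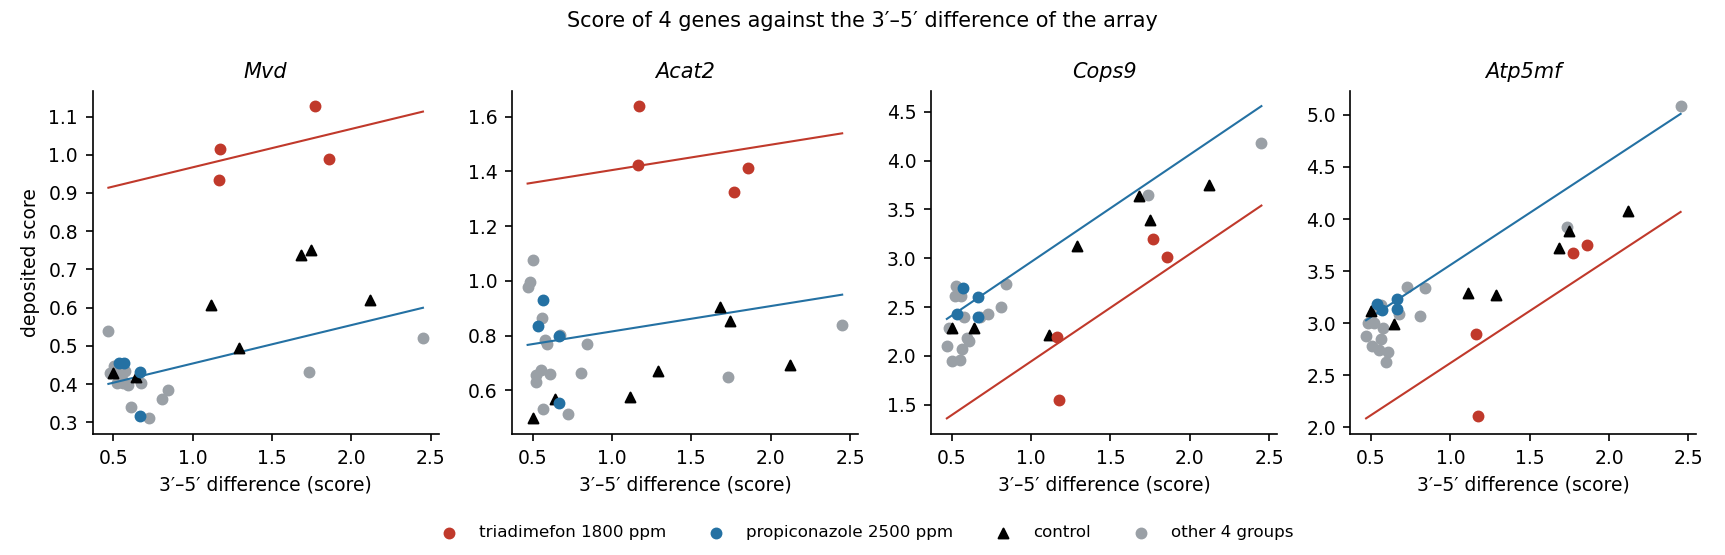
Deposited score of Mvd, Acat2, Cops9 and Atp5mf on the 32 arrays against the 3′–5′ difference of the array (score units), with the fitted lines of triadimefon 1800 ppm (red) and propiconazole 2500 ppm (blue). For Mvd and Acat2 all red points lie above all blue points, while for Cops9 and Atp5mf red and blue points overlap in height and the red line runs below the blue one, by 1.02 and 0.94.

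Set beside the controls, the Cyp2b probe set, Aldh1a1, Ces2c and Abcc3 rose after both compounds, and the 4 called cholesterol enzymes rose after triadimefon. These comparisons share the 7 controls, so their values are given side by side and no overlap or correlation between them is drawn. With the covariate, triadimefon at 1800 ppm differed from the controls in 604 probe sets (1.95%), 509 higher (1.64%) and 95 lower (0.306%), and propiconazole at 2500 ppm differed in 25 (0.0805%), 21 higher (0.0677%) and 4 lower (0.0129%). The 4 enzymes were picked because they were higher after triadimefon than after propiconazole on these same arrays. Their differences from the controls are therefore no separate test, and the contrast between the compounds is partly set by that choice. Mvd differed from the controls by 0.42 after triadimefon (adjusted p = 2.8e-06) and by −0.10 after propiconazole (adjusted p = 0.704). Acat2 differed by 0.75 after triadimefon (adjusted p = 1.41e-06) and 0.16 after propiconazole (adjusted p = 0.708), Hsd17b7 by 0.58 (adjusted p = 0.000522) and −0.06 (adjusted p = 0.955), and Lss by 0.45 (adjusted p = 5.69e-05) and 0.06 (adjusted p = 0.913). The median of the 18 cholesterol genes was 0.59 after triadimefon and 0.15 after propiconazole. Among the members not called, the difference of propiconazole from the controls ran between −0.07 for Nsdhl and 0.49 for Idi1.

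Beside Gstt2, no gene of the lists for CAR and PXR targets, Ah receptor targets, phase II conjugation or drug transporters passed between the compounds with the covariate. Of all genes 0.26% passed, so lists of this size would hold few calls at that share. The Cyp2b probe set, which carries the symbols of Cyp2b2 and Cyp2b1, the textbook targets of CAR, was at 6.28, 5.16, 5.46 and 4.86 after triadimefon, against 4.48, 5.39, 4.35 and 4.73 after propiconazole and 2.14 to 3.03 in the controls. Both compounds lay above the controls, by 2.86 after triadimefon (adjusted p = 1.61e-06) and 2.49 after propiconazole (adjusted p = 0.000866). Between the compounds the scores overlapped and the difference was 0.37 (95% interval −0.40 to 1.14, adjusted p = 0.737). It was 0.71 without the covariate (adjusted p = 0.162), and −0.03 with the covariate but without triadimefon replicate 1. The interval allows differences of both signs, so the compounds cannot be called alike.

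Aldh1a1, a retinal dehydrogenase, was at 4.29, 4.03, 4.09 and 4.05 after triadimefon, against 3.31, 3.39, 2.95 and 3.81 after propiconazole, with no overlap. It differed from the controls by 2.25 after triadimefon (adjusted p = 7.54e-06) and by 1.61 after propiconazole (adjusted p = 0.0149), and between the compounds by 0.64 (95% interval −0.03 to 1.32, adjusted p = 0.448). Ces2c, a carboxylesterase, differed from the controls by 1.75 after triadimefon and 1.20 after propiconazole, both called, and between them by 0.55 (95% interval 0.12 to 0.99, adjusted p = 0.291). Por, the reductase that hands electrons to cytochromes P450, was at 2.80, 2.44, 2.01 and 2.39 after triadimefon, against 1.70, 1.74, 1.40 and 1.94 after propiconazole, with no overlap. Its difference was 0.49 (95% interval 0.09 to 0.89, adjusted p = 0.314) with the covariate and 0.72 (adjusted p = 0.028) without it.

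Abcc3, an export pump for conjugates, was at 0.68, 0.88, 0.61 and 0.84 after triadimefon, against 0.31, 0.31, 0.23 and 0.84 after propiconazole. Replicate 4 of propiconazole lay with the triadimefon arrays. The difference was 0.32 (95% interval 0.10 to 0.53, adjusted p = 0.215) with the covariate and was called without it (0.33, adjusted p = 0.0315). Cyp1a1, the textbook target of the Ah receptor, was at 1.51, 3.12, 2.60 and 2.95 after triadimefon, against 1.72, 1.69, 1.13 and 2.09 after propiconazole and −0.11 to 0.34 in the controls. Its difference from the controls was called after triadimefon (2.45, adjusted p = 0.000252) and not after propiconazole (1.73, adjusted p = 0.101), and the test between the compounds gave 0.72 (95% interval −0.23 to 1.66, adjusted p = 0.562), which does not show that they differ. Cyp3a23-3a1, a textbook PXR target, was at 5.84, 5.09, 5.23 and 4.85 after triadimefon, against 4.09, 4.98, 4.09 and 4.39 after propiconazole. Its difference was 0.07 with the covariate (95% interval −0.64 to 0.78, adjusted p = 0.961) and 0.87 without it (adjusted p = 0.154). The slope was 0.91 per unit of 3′–5′ difference. Against the controls neither compound was called in limma, at 0.81 after triadimefon (adjusted p = 0.142) and 0.74 after propiconazole (adjusted p = 0.548).

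**Figure D5:**
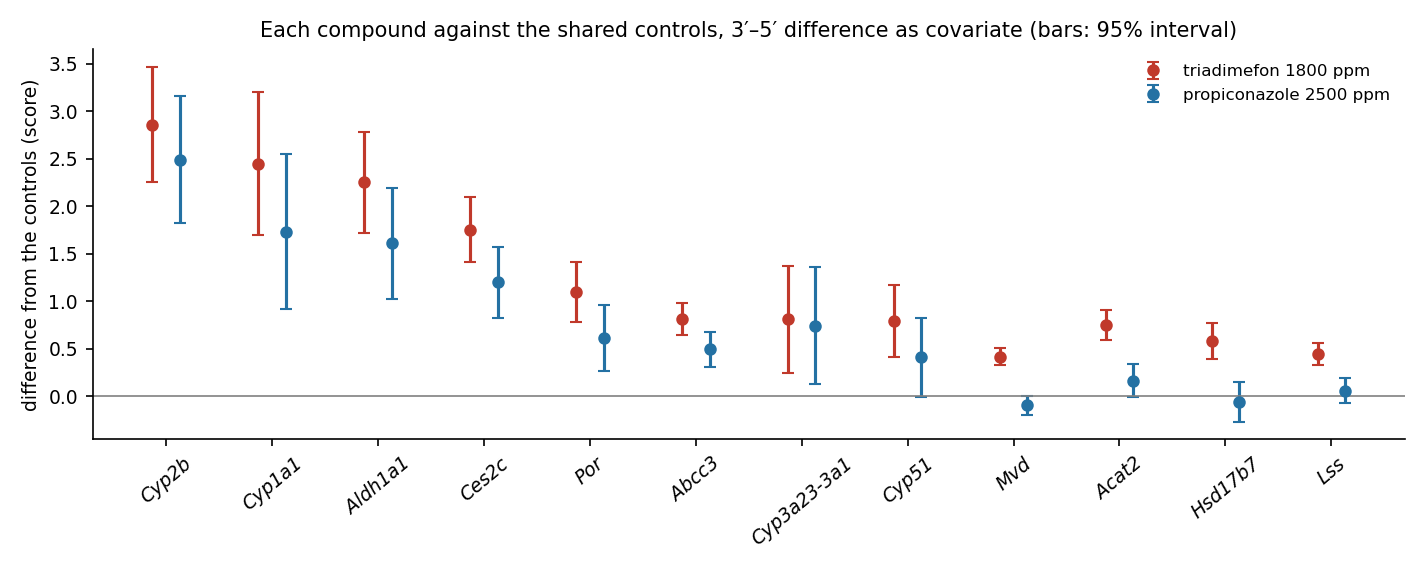
Difference of scores from the 7 shared controls with the 3′–5′ difference as covariate, for triadimefon 1800 ppm (red) and propiconazole 2500 ppm (blue), with 95% intervals as bars. Points of the drug metabolism genes lie above 0 for both compounds, and those of Mvd, Acat2, Hsd17b7 and Lss lie above 0 for triadimefon, at 0.42 to 0.75, and near 0 for propiconazole, at −0.10 to 0.16.

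The one level at which both compounds were fed alike is 500 ppm, with other rats, 5 after triadimefon and 3 after propiconazole. There, 0 of 31042 probe sets were called in limma and 931 (3%) had an unadjusted p under 0.05. The 39 higher calls of the high levels had a positive difference at 500 ppm in 24 cases (61.5%), where 39% of all probe sets did. The 9 lower calls had a negative difference there in 4 cases (44.4%), where 61% of all probe sets did. Acat2 differed by 0.25 at 500 ppm (95% interval 0.07 to 0.44, adjusted p = 1), Hsd17b7 by 0.20 (95% interval −0.02 to 0.42), Mvd by 0.07 (95% interval −0.04 to 0.18) and Lss by 0.07 (95% interval −0.07 to 0.21). The median of the 18 cholesterol genes was 0.16 and all 18 were above 0, beside a median of −0.02 for all genes, of which 64.7% were below 0. The difference at the high levels was not shown to exceed that at 500 ppm for any probe set, with 0 called in limma, 2449 at an unadjusted p under 0.05, and an adjusted p of 0.151 for Mvd.

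Markers of other liver cells were read on the same arrays. Of 18 Kupffer and macrophage markers listed 14 were measured, and 12 (85.7%) were above 0 between the compounds, beside 65.2% of all genes. Their median was 0.33 with the covariate, 0.41 without it and 0.28 without triadimefon replicate 1. Between the compounds at 500 ppm their median was −0.09 and 78.6% were below 0, beside 64.7% of all genes. None was called in limma with the covariate, beside 0.26% of all genes. At an unadjusted p under 0.05, 6 were higher, where 10.5% of all genes were. Without the covariate 7 were called higher, beside 9.47% of all genes. The mean score of the 14 was 1.28 to 1.66 after triadimefon and 0.97 to 1.31 after propiconazole. Cd5l, a secreted macrophage protein, was at 2.58, 2.71, 1.99 and 2.60 after triadimefon, against 1.69, 1.51, 1.55 and 1.47 after propiconazole, with a difference of 0.54 (adjusted p = 0.375). Csf1r, the receptor for the macrophage growth factor, was at 1.55, 1.44, 1.03 and 1.29 after triadimefon, against 0.83, 0.87, 0.82 and 0.70 after propiconazole, with a difference of 0.43 (adjusted p = 0.122). Neither marker's groups overlapped, and both were singled out after their values were seen. Stellate and matrix markers, 19 measured, had a mean score of 0.68 to 0.88 after triadimefon and 0.50 to 0.67 after propiconazole, with a median difference of 0.10, 0 called in limma and 7 higher at an unadjusted p under 0.05. Of the 15 measured hepatocyte markers, 3 (20%) were above 0 with the covariate, and 0 were called. Their median was −0.08 with the covariate, 0.51 without it and −0.42 with the covariate but without triadimefon replicate 1. In whole liver, more cells of a type and more RNA per cell cannot be told apart, and the part of macrophage RNA in the call of RT1-Db1 was not tested.

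Outside cholesterol synthesis the pathway lists held few calls. With the covariate 0.26% of all genes were called, so lists of this size would hold few calls at that share. Of 42 lists, 4 held a call with the covariate, and 26 of the other 38 held one without it, where 9.47% of all genes were called higher. Phase II conjugation had 1 lower call, Gstt2, among 37 genes, stress and growth arrest 1 higher call, Gadd45b, among 25, and steroid hormone metabolism 1 higher call, Hsd17b7, among 27. The CAR and PXR list, 16 genes measured, had 0 called in limma and 2 higher at an unadjusted p under 0.05 (12.5%, beside 10.5% of all genes), with a median of 0.06 with the covariate, 0.56 without it and −0.05 with the covariate but without triadimefon replicate 1. Lists rested on triadimefon replicate 1 in general, with a median above 0 in 33 of 42 lists with that array and in 15 without it. Genes of sterol regulation, uptake and export had 0 of 18 called, 4 higher at an unadjusted p under 0.05, and a median of 0.18 that was 0.02 without triadimefon replicate 1. The 40 genes of the urea cycle and amino acid catabolism likewise turned on that array, with a median of 0.18 with it and −0.06 without it, and 0 called, 2 higher at an unadjusted p under 0.05. The 33 genes of the cell cycle and DNA replication had a median of 0.05 both with and without it. Of these, 27 (81.8%) were above 0, beside 65.2% of all genes, and 0 were called, with 6 higher at an unadjusted p under 0.05.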

How the data were processed

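Liver RNA was measured on Affymetrix arrays. The deposited values are a score per probe set made by the authors; summarisation, normalization and scale are not stated in the labels or the table. Scores were used unchanged, and the number of arrays limits the precision. Among the 31042 probe sets tested, 20826 had 1 gene symbol, 436 several and 9780 none, and 20758 matched RefSeq annotation by Entrez identifier. A gene was represented by its probe set of highest mean score (14217 genes).

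All 7 groups entered 1 model (limma 3.58.1, R 4.3.3, version 1.17.8 of data.table; lmFit, contrasts, eBayes) with the mean of the GAPDH and β-actin 3′–5′ differences as a linear covariate, since it differs between the groups (24 residual and 2.37 prior degrees of freedom). The slope was estimated within all groups, whose spread was widest after myclobutanil at 500 ppm (SD 0.85) and in the controls (SD 0.59). Compound and 3′–5′ difference are confounded in the 8 arrays, so the adjusted difference rests on that slope. The test had been planned for log2 values. Tests were two-sided with Benjamini-Hochberg adjustment over all probe sets and a threshold of 0.05; intervals are at 95%. The code was tested on simulated data. Named genes are, per direction, the 10 largest differences among called genes, at most 2 members, by p, of every list holding a call, and Cyp51, Cyp3a23-3a1, Cyp1a1, Cyp2b, Ces2c, Aldh1a1, Por and Abcc3. Members and the 42 lists (861 of 994 entries measured) were chosen with earlier results of these data known, and are described without set tests. Of 28 alternatives, 25 were planned and 3 added after seeing the data. 3 arrays marked by the submitters as left out of their final analysis hold no values and were not used.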

Additional observations from a re-analysis of the deposited data

Results flagged for a closer look

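The range test for 1 distant array among 4 was run on 62 groups of values, of which chance marks about 1 in 20. It marked 2 genes on the same array, replicate 4 of propiconazole at 2500 ppm. Nfe2 was at −0.053 there, where the other 3 propiconazole arrays lay between −0.313 and −0.276. Abcc3 was at 0.843 there, where the other 3 lay between 0.227 and 0.314. Both scores lay toward those of triadimefon at 1800 ppm, which were 0.03 to 0.64 for Nfe2 and 0.61 to 0.88 for Abcc3.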

How the results depend on the processing

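Against 48 calls, 2590 were called without the covariate, 22 with the β-actin difference alone, 25 without replicate 1 of myclobutanil at 500 ppm, 21 after quantile normalization and 1199 after it without the covariate, and 8 after scaling to 1 SD. Using the 8 arrays alone without the covariate gave 2961, arrays with a GAPDH difference up to 0.9, also without the covariate, gave 6459 and animals numbered below 3000, with the covariate, gave 4996, where the triadimefon group of the last subsets is 1 array and was assumed to vary like the other groups. Of the alternatives added after seeing the data, leaving out both triadimefon replicate 1 and the covariate gave 2883, a squared covariate 15 and Prm1 as a second covariate 21. Leaving out 1 array of either group gave 5 to 127. With the number series as a block 52 were called, and 33 when the covariate was also dropped. With the 8 arrays alone and the covariate 44 were called, of which 2 were among the 48. Mvd, Sbspon, Acat2, C8h11orf52, Hsd17b7 and Lss were not among the 44. The numbers 1 to 4 do not pair the groups (deviations correlated at −0.21, −0.30, −0.11 and −0.01), and a fit with the replicate block called 50.

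Signs turned in these cases. Paqr7 was at 0.18 without the covariate in all arrays and in the 8, and at 0.0098 after quantile normalization without it. Without triadimefon replicate 1 and the covariate, Paqr7 was at 0.24, Atp5mf at 0.27, Cops9 at 0.27, Polr2l at 0.13 and Gstt2 at 0.000342. Cyp1a1 was at −0.14 on arrays with a GAPDH difference up to 0.9 without the covariate, −0.27 on the 8 arrays with the covariate and −0.18 on animals numbered below 3000. In the first and last of these subsets, triadimefon replicate 1 was the only triadimefon array. Its Cyp1a1 score was 1.51, where the other triadimefon arrays were at 2.60 to 3.12. Leaving out single arrays put the Cyp2b probe set at −0.028 to 0.66 and Cyp3a23-3a1 at −0.29 to 0.49, the highest without replicate 1 of myclobutanil at 500 ppm. Cyp3a23-3a1 was also at −0.075 with the β-actin difference alone and −0.021 with the replicate block. The cause was not tested. Over the named genes and alternatives, 520 values kept sign and side of the threshold, 229 lost the call, 16 gained it and 18 turned sign. Of 28 alternatives, Mvd and Sbspon were called in 27, Acat2 and C8h11orf52 in 26, Hsd17b7 and Synpo in 23, Lss in 20, and Cops9, Atp5mf, Ndufv3 and Gstt2 in 8.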

Other observations

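Among the higher calls that the rule does not name, 8 genes are given here, picked after their values were seen. Between triadimefon at 1800 ppm and propiconazole at 2500 ppm, a second probe set of Scd2, a stearoyl-CoA desaturase, differed by 0.41. Smoc2 differed by 0.38, Tspan9 by 0.30, Cemip by 0.28, Cd276 by 0.27, Aacs, which makes acetoacetyl-CoA in the cytosol, by 0.27, Sort1, a sorting receptor, by 0.23, and Osbpl5, an oxysterol-binding protein relative, by 0.21. Other probe sets of several of these genes lay nearer to 0, at −0.02 to 0.12 for Scd2, 0.01 and 0.05 for Smoc2, 0.05 for Tspan9, 0.05 for Cd276 and 0.01 for Sort1. The lists nearest to these genes held no call in limma, with 0 of 26 in fatty acid and triglyceride synthesis (4 higher at an unadjusted p under 0.05), 0 of 18 in sterol regulation (4 higher) and 0 of 19 in stellate and matrix markers (7 higher). The shares higher at an unadjusted p under 0.05 were 15.4%, 22.2% and 36.8%, beside 10.5% of all genes. Of all genes 0.26% were called.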
